A study of Mus musculus with 15 samples.

Results

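Slow-twitch (type I) muscle fibre genes were followed in mouse femur segments by their probes on a 2-colour oligonucleotide array. The 10 genes were Myh7, Myl2, Myl3, Tnnt1, Tnni1, Tnnc1, Csrp3, Myoz2, Atp2a2 and Mb, selected on their log ratios in an earlier look at these arrays, where they were low in the operated flight animals. The probes were all non-control probes whose transcript accession maps to one of these symbols. This gave 12 probes for the 10 genes, of 55681 probes on the array, and 21154 genes could be named from the probes. Tnnt1 and Atp2a2 had 2 probes each, and the probe with the highest mean Cy5 signal over all arrays stands for its gene below unless the other is named.

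The samples came from male C57BL/6J mice labelled 9 weeks old. The mice were kept for some weeks on the International Space Station (FLT) or in matching hardware on the ground (G), and in each place were either unoperated (Sham) or given a segmental bone defect (Surgery), in which a piece of the femoral shaft was removed and a scaffold, held by a pin, wrapped with a saline-soaked collagen sponge was put in its place. All 4 groups carry the tissue label callus, although in the Sham animals the material was the same stretch of an intact femur. There were 4 arrays of G-Sham, 4 of FLT-Sham, 4 of G-Surgery and 3 of FLT-Surgery, numbered by the animal numbers in the labels. Each array compared Cy5-labelled RNA of a sample with Cy3-labelled mouse reference RNA, with no dye swap, and values below are the log2 ratio of Cy5 to Cy3. A spot counts as above background where the scanner software called its signal well above background.

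Slow fibres contract slowly and resist fatigue. Their sarcomeres, the repeating contractile units of the fibre, are built from slow forms of the myosin heavy chain (Myh7), the myosin light chains (Myl2, Myl3) and the troponin complex (Tnnt1, Tnni1, Tnnc1). They also hold much myoglobin (Mb), and they take up calcium with the pump encoded by Atp2a2. Most of these genes are also used by the heart. Slow fibres are enriched in muscles that hold posture, and such muscles are known to be sensitive to unloading.

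The femur segments held muscle RNA. Of 9 general skeletal muscle markers, 7 to 9 were above background on every array, and their summed Cy5 signal ranged from 390000 to 2010000 in G-Sham, from 522000 to 5710000 in FLT-Sham, from 250000 to 1190000 in G-Surgery and from 81000 to 1060000 in FLT-Surgery. Of 6 heart markers, 0 to 3 were above background on an array, and the atrial light chain Myl7 and cardiac troponin I Tnni3 were above background on none of the 15. Bone markers were present too, with 2 to 6 of 10 osteoblast and osteocyte markers above background on an array, while Sp7, Dmp1, Phex and Sost were above background on none. In bulk tissue, fewer slow fibres in a segment and less slow-fibre RNA per fibre cannot be told apart. In Cy5, 12493 to 14260 probes were above background in FLT-Surgery, 14309 to 20697 in G-Surgery, 12869 to 18300 in G-Sham and 14813 to 21461 in FLT-Sham. Every FLT-Surgery array was thus below every G-Surgery and FLT-Sham array. The arrays lay on 3 slides. Slide 1 held 3 G-Surgery, 2 FLT-Surgery and 1 each of the Sham groups, and slide 2 held 3 FLT-Sham, 2 G-Sham and 1 each of the Surgery groups. G-Sham replicate 4 was alone on slide 3 and is marked in the deposit as a rerun.

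Promoter sequence is shown for 4 of the genes, since these 4 hold a match to 1 or more of 3 motifs known from muscle promoters. The window is the 250 bases before the RefSeq start on build GRCm38.p6, written 5′ to 3′ on the gene's strand and taken at the most upstream start of a gene. Of the 10 members, 9 had an entry, and Atp2a2 had none. Capitals mark a match, on either strand, to the MCAT motif (CATTCC, bound by TEAD factors), the CArG box (bound by serum response factor) or the MEF2 motif. The windows are Myl3 on the plus strand of chr9:110763428-110763677, Myoz2 on the minus strand of chr3:123034988-123035237, Myh7 on the minus strand of chr14:54994627-54994876 and Tnnc1 on the plus strand of chr14:31208062-31208311.
Myl3: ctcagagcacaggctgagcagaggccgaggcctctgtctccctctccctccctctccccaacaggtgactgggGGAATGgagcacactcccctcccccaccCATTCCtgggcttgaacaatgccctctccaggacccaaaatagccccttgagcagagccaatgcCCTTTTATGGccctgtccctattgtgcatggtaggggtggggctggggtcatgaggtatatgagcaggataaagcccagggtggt
Myoz2: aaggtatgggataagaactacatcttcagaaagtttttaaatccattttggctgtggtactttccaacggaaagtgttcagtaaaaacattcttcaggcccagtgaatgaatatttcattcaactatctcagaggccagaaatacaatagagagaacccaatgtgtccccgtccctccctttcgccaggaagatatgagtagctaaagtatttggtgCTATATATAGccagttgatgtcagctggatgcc
Myh7: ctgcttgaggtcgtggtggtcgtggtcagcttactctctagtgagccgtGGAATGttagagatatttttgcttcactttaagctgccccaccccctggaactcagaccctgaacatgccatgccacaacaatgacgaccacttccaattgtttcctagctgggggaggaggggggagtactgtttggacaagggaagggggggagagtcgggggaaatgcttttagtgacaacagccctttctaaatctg
Tnnc1: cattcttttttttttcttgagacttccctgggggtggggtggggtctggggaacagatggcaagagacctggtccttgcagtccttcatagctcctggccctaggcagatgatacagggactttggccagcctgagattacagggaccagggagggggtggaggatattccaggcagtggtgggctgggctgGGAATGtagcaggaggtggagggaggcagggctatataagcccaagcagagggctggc
The MCAT motif was in 3 of the 9 windows (Myh7, Myl3, Tnnc1), against 12.6% of 27025 promoter windows of the same length. The CArG box was in Myl3, against 1.41%, and the MEF2 motif was in Myoz2, against 3.03%. An E-box (CANNTG), the motif of myogenic helix-loop-helix factors, was in all 9 windows, against 66.1%. The motifs were looked for independently of each other, so that matches may overlap.

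Of the genes of the thick filament, Myh7 encodes the slow myosin heavy chain, the motor of type I fibres. Its log2 ratio was 5.92, 7.09, 6.51 and 10.13 in G-Sham replicates 1, 3, 4 and 5, and 8.74, 9.22, 6.91 and 8.99 in FLT-Sham replicates 4, 6, 8 and 9. In G-Surgery replicates 1, 3, 4 and 5 it was 4.74, 9.79, 8.20 and 5.23, and in FLT-Surgery replicates 1, 3 and 5 it was 4.86, -1.54 and 1.62. FLT-Surgery replicate 1 lay inside the range of G-Surgery, and the other FLT-Surgery arrays lay below every array of the other groups. Myh7 was above background on 2 of 3 FLT-Surgery arrays and on all 12 of the others. Myh7 and the closely similar Myh6 may share hybridisation, which was not tested.

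Myl2 encodes the slow regulatory light chain of myosin, and it ran from 4.68 to 9.52 in G-Sham, from 7.10 to 8.59 in FLT-Sham and from 4.50 to 9.81 in G-Surgery. In FLT-Surgery it was 4.58, -1.12 and -1.0, with replicate 1 alone above background. Replicate 1 thus lay within G-Surgery, and replicates 3 and 5 fell far below it.

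Myl3, the slow essential light chain, was 7.28, 7.42, 6.69 and 9.20 in G-Sham and 7.79, 8.35, 7.28 and 8.71 in FLT-Sham, in the replicate order given for Myh7. It was 6.56, 9.46, 8.10 and 7.76 in G-Surgery and 5.39, 2.85 and 4.72 in FLT-Surgery. Every FLT-Surgery array was below every array of the other 3 groups, and the spot was above background on all 15 arrays, so that Myl3 was measured throughout.

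Among the thin filament genes, Tnnt1 encodes slow troponin T, which ties the troponin complex to tropomyosin. It was 3.13, 2.87, 2.87 and 5.73 in G-Sham, 4.74, 5.53, 3.52 and 4.42 in FLT-Sham, 2.68, 5.40, 4.34 and 3.02 in G-Surgery and 1.75, 0.91 and 0.76 in FLT-Surgery. The 3 FLT-Surgery arrays were again the lowest of the 15, with the spot above background on every array. Its second probe was -1.11, -1.69 and -2.81 in FLT-Surgery, not above background on any of the 3 arrays, and from -0.40 to 3.81 in G-Surgery, also without overlap.

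Tnni1, the slow inhibitory troponin, and Tnnc1, the calcium-binding troponin of slow and cardiac muscle, were dim. Tnni1 ran from -2.87 to 3.25 in G-Sham, from -1.55 to 3.93 in FLT-Sham, from -0.39 to 3.13 in G-Surgery and from -2.67 to -0.54 in FLT-Surgery. Tnnc1 ran from -3.17 to 3.65 in G-Sham, from -0.70 to 3.96 in FLT-Sham, from -3.47 to 0.97 in G-Surgery and from -3.34 to -1.69 in FLT-Surgery. Neither was above background on any FLT-Surgery array, and each was above it on 1 of 4 G-Sham, 3 of 4 FLT-Sham and 2 of 4 G-Surgery arrays.

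Csrp3 and Myoz2 encode proteins of the Z-disc, the plate that anchors the thin filaments. Csrp3 was 7.04, 6.19, 1.71 and 5.55 in G-Sham, 5.96, 9.55, 4.49 and 5.77 in FLT-Sham and 2.33, 7.60, 6.37 and 3.86 in G-Surgery. It was 0.71, 0.13 and -4.15 in FLT-Surgery, with no spot well above background in Cy5. The last value came from a spot flagged for an uneven background, whose Cy3 signal was 755 against 8.04 to 34.8 on the other 14 arrays.

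Myoz2, which binds calcineurin and is enriched in slow fibres, was 4.0, 2.69, 2.92 and 5.38 in G-Sham and 5.14, 8.29, 1.95 and 5.95 in FLT-Sham. It was 3.50, 6.57, 5.31 and 3.40 in G-Surgery and 1.11, -0.68 and 0.00 in FLT-Surgery. The 0.00 is a placeholder that the software gave where neither channel was above background. The FLT-Surgery arrays lay below all 12 others, and the G-Surgery arrays were all above background in Cy5. The Cy3 reference signal of Myoz2 was above background on no array, so that all its ratios rest on a dim reference.

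Atp2a2 encodes the calcium pump of slow and cardiac muscle, and it is also made in many other cells. It ran from -4.18 to 3.0 in G-Sham, from -1.48 to 3.85 in FLT-Sham, from -4.57 to 1.75 in G-Surgery and from -4.15 to -3.37 in FLT-Surgery. Both its probes were not above background on any FLT-Surgery array. Its second probe spanned from -2.57 to 1.06 over all 4 groups, so that the probes of this gene did not show the same span.

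Mb encodes myoglobin, the oxygen store of oxidative fibres. It was 4.42, 8.89, 8.08 and 9.46 in G-Sham, 8.21, 8.27, 6.58 and 9.13 in FLT-Sham, 4.33, 9.17, 7.67 and 7.50 in G-Surgery and 5.15, -1.68 and 1.41 in FLT-Surgery. As for Myh7 and Myl2, FLT-Surgery replicate 1 was within the range of G-Surgery and replicates 3 and 5 were below it.

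**Figure D1:**
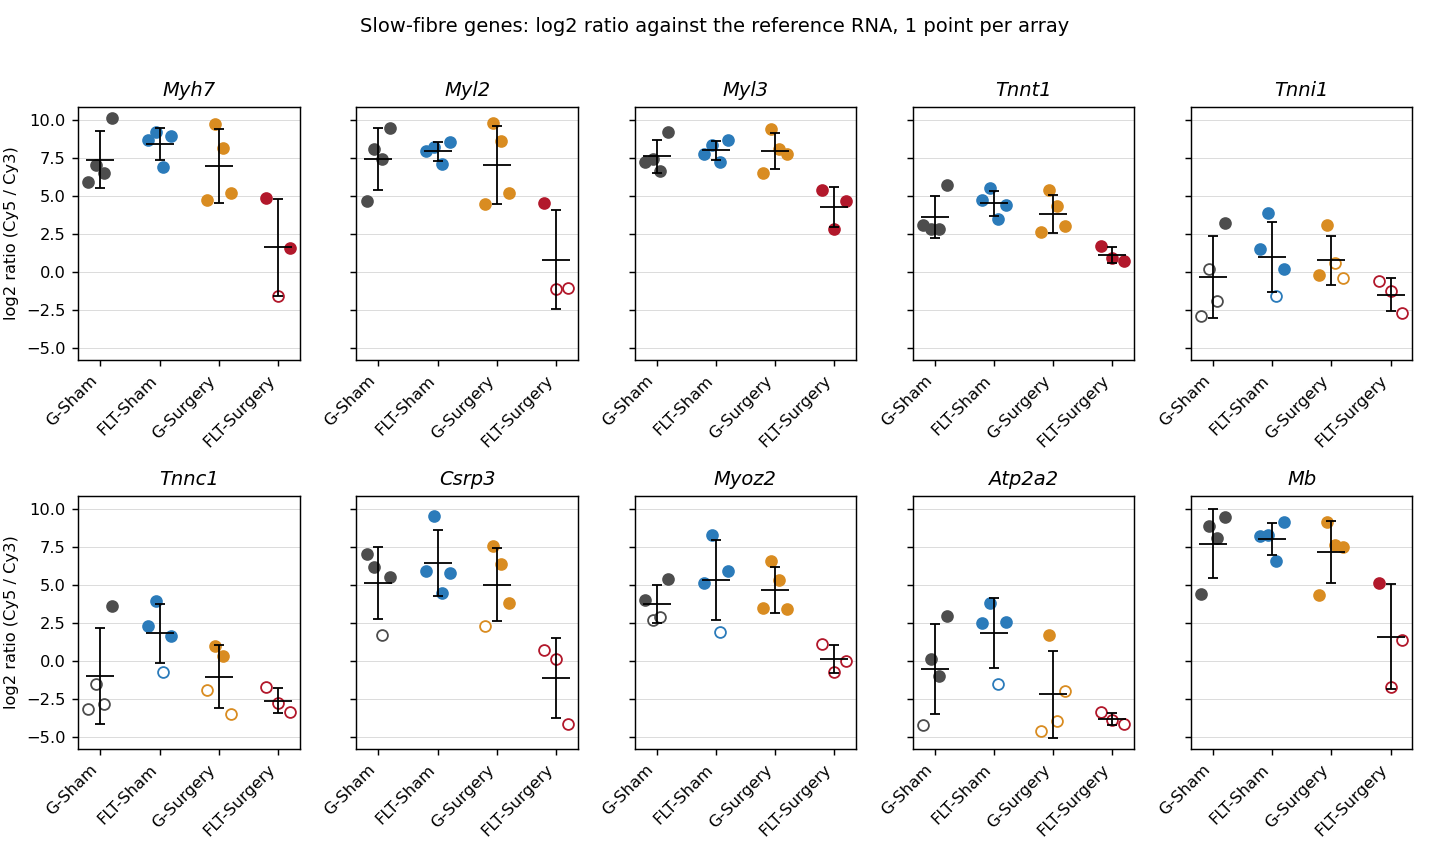
Log2 ratio of Cy5 (sample) to Cy3 (reference RNA) for the brightest probe of each of the 10 slow-fibre genes, 1 point per array, in the 4 groups; horizontal bars are group means and whiskers the SD. Open points are spots not well above background in Cy5. For Myl3 and Tnnt1, all 3 FLT-Surgery points lie below all 12 points of the other groups.

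The Cy5 signal alone, without the reference, showed the same order for the bright genes. For Myl3 it was between 8721 and 84964 in G-Surgery and between 844 and 2960 in FLT-Surgery, and for Tnnt1 between 14959 and 105829 in G-Surgery and between 4098 and 6676 in FLT-Surgery. For Myh7 it reached 100237 in G-Surgery and went down to 75.4 in FLT-Surgery. The highest single value of a member was 262131, for Myl3 in FLT-Sham replicate 6.

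**Figure D2:**
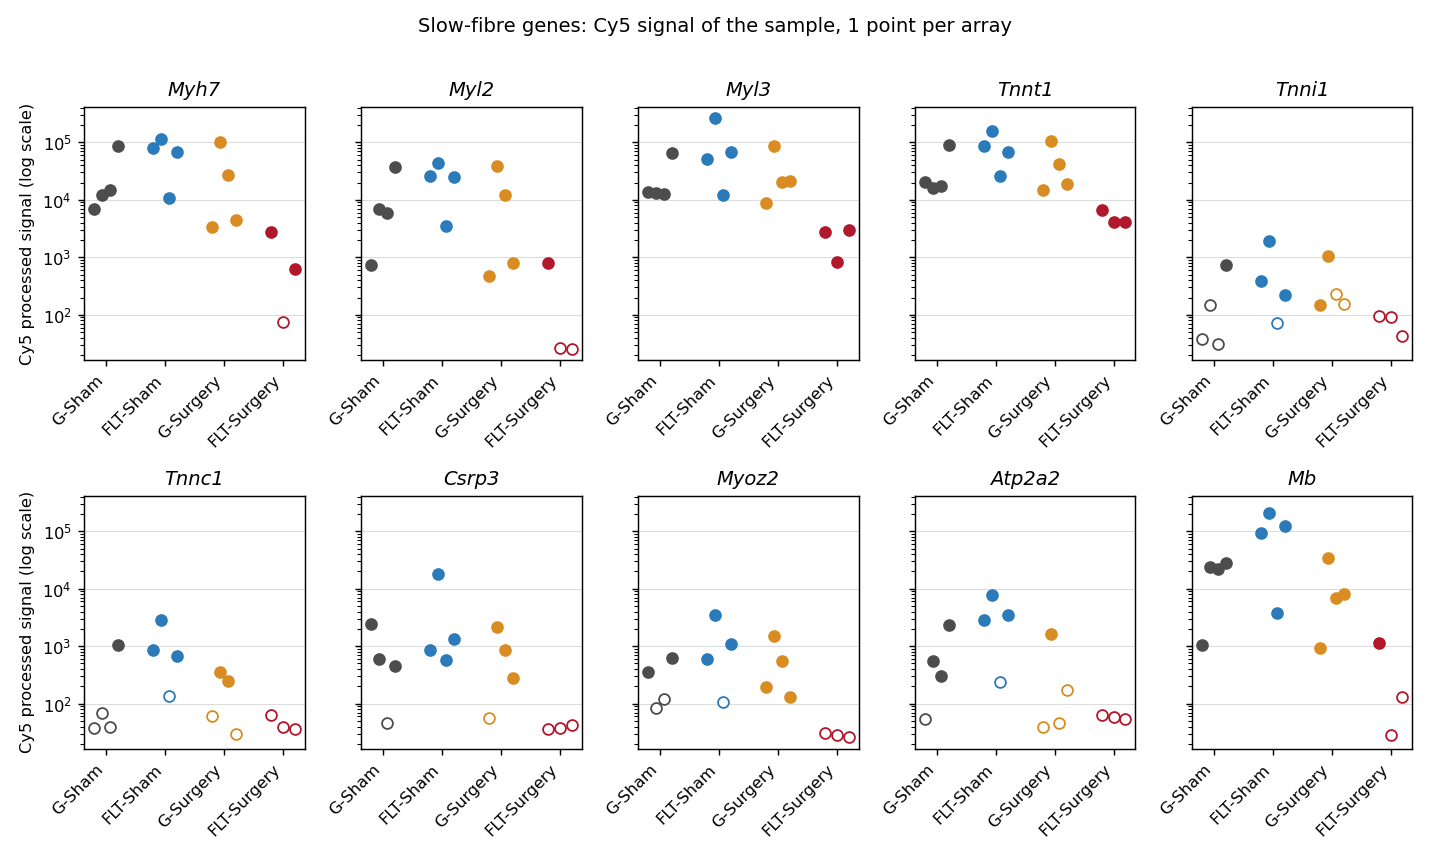
Cy5 processed signal (log axis) of the brightest probe of each slow-fibre gene, 1 point per array, in the 4 groups, with open points not well above background. For Myl3 the FLT-Surgery arrays lie between 844 and 2960, and the G-Surgery arrays between 8721 and 84964.

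The members differed widely between animals of a group. Averaged over the 10 genes, the log2 ratio ran from 2.63 to 6.49 in G-Sham, from 3.41 to 6.92 in FLT-Sham, from 2.20 to 6.37 in G-Surgery and from -0.90 to 1.80 in FLT-Surgery. FLT-Sham replicate 6 had the highest ratio of the 15 arrays for 5 of the genes, G-Sham replicate 5 for 3 and G-Surgery replicate 3 for 2. Between 2 and 5 members were above background on an FLT-Surgery array, against 6 to 10 elsewhere. Over the 15 arrays, the 45 pairs of members had a median Pearson r of 0.80, from 0.60 to 0.96. With group means removed, each gene's r with the mean of the other 9 ran from 0.54 for Csrp3 to 0.92 for Tnnt1. The r over the 15 arrays includes the FLT-Surgery arrays, where the genes were chosen for being low, so that choice enters into it. These arrays share the reference RNA and the dye normalisation.

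In the Sham animals, whose arrays were not used to single out the genes, the members did not pass the test in either direction. The comparison asks what flight does to an intact femur and its attached tissue. All 10 genes had a higher mean in FLT-Sham than in G-Sham, by 0.34 (Mb) to 2.77 (Tnnc1) on the log2 scale, with a median of 1.19 against 0.39 over all named genes tested. Medians of other gene lists ran from -0.20 for cartilage markers to 2.71 for fat cell markers. They included 1.79 for neutrophil markers, 1.12 for general sarcomere genes and 0.62 for general muscle markers. The cut-off of the study, a fold change of 2 with an unadjusted p of 0.01, was passed by 0 of the 10, against 2% of the 19739 probes tested. The unadjusted p was above 0.05 for all 12 probes, while 1890 of all probes tested lay at or below it, and 0 probes passed an adjusted p of 0.05. In limma's moderated test the adjusted p over all probes was lowest for Tnnc1, at 0.52, and highest for Mb, at 0.88.

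The intervals were wide. For Tnnc1 the difference was 2.77 with a 95% interval from -0.77 to 6.31, and for Atp2a2 it was 2.37 with an interval from -1.23 to 5.98. For Myl3, the most evenly measured member, it was 0.38 with an interval from -0.94 to 1.71, and for Tnnt1 it was 0.91 with an interval from -0.74 to 2.55. The second probe of Atp2a2 went the other way, at -0.57 with an interval from -2.40 to 1.26. The FLT-Sham and G-Sham arrays overlapped for all 12 probes.

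The size of the Sham difference moved with single arrays and with the slide. The median over members was 0.51 without FLT-Sham replicate 6, 0.64 without G-Sham replicate 1, 0.70 without G-Sham replicate 4 and 1.78 without G-Sham replicate 5, and without that last array Tnnc1 alone passed the cut-off, with a difference of 4.30. With the slide as a block it was 0.66. Within slide 1, where each group had 1 array, it was 1.5, with 7 of 10 genes higher in FLT-Sham, and within slide 2, with 3 FLT-Sham and 2 G-Sham arrays, it was 0.69, with 9 of 10 higher. With loess, a second intensity-dependent normalisation, the median was 0.74 and Myl3 (-0.0342) and Mb (-0.29) turned negative. With both channels above background on every array, 5 members remained in the test, with a median of 0.52. The adipocyte markers Cidec and Plin1 and the bone sialoprotein gene Ibsp passed the cut-off as higher in FLT-Sham, and their part in the difference was not tested. Plin1 was above background on no G-Sham array and entered the test through FLT-Sham alone.

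Between FLT-Surgery and G-Surgery, the contrast on which the genes were chosen, the values are a description and carry no test. All 10 genes had a lower mean in FLT-Surgery. The differences were -6.23 ± 1.79 (SE) for Myl2, -6.14 ± 1.56 for Csrp3, -5.54 ± 1.68 for Mb, -5.34 ± 1.72 for Myh7 and -4.55 ± 0.85 for Myoz2. They were -3.65 ± 0.80 for Myl3 and -2.72 ± 0.67 for Tnnt1, with -3.26 ± 1.07 for its second probe. The smallest were -2.27 ± 1.02 for Tnni1, -1.62 ± 1.59 for Atp2a2 and -1.59 ± 1.20 for Tnnc1.

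The median over the 10 genes was -4.10, against -0.36 over all named genes tested. Of the 10 genes, 7 were bright enough to be tested, and 5 of them (Tnnt1, Myl3, Myl2, Csrp3 and Myoz2) were past the cut-off, where 2.09% of the 16548 probes tested were past it as lower and 3.14% in either direction. Nothing is read from that count, since the rule used this contrast, and Csrp3 and Myoz2 entered the test through G-Surgery alone. It was 3 without G-Surgery replicate 3, 2 without G-Surgery replicate 4, 3 without G-Surgery replicate 5, 3 without FLT-Surgery replicate 3 and 2 without FLT-Surgery replicate 5. Over all probes tested, 173 were past the cut-off as higher and 346 as lower, and this split became 1128 and 62 with loess and 589 and 185 with Cy5 alone. The groups did not overlap for Myl3, Tnnt1, Tnni1, Csrp3 and Myoz2, and overlapped for Myh7, Myl2, Tnnc1, Atp2a2 and Mb. The share of all probes without overlap is not given here, so nothing is read from this split.

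Where no FLT-Surgery array was above background, the log2 difference above is no measure of size. The fold is then a lower limit under a single processing only. For Csrp3 the difference of -6.14 was -4.62 without the flagged spot, -3.15 with Cy5 alone and -1.31 with normexp background correction and loess. The fold was computed in Cy5 with arrays brought to a common distribution of average intensity (limma's Aquantile, following loess). Dye bias was not tested because no dyes were swapped. In that processing G-Surgery was at least 4.65-fold higher for Csrp3, 4.25-fold for Myoz2, 2.54-fold for Tnni1, 1.67-fold for Atp2a2 and 1.32-fold for Tnnc1. For the second probe of Tnnt1 the 4.51-fold is a ratio of measured means, since its signal lay at or above the floor. With normexp and loess the log2 differences of Myoz2 (-0.82), Tnni1 (-0.34) and Atp2a2 (-0.26) were smaller than these folds, as was that of Csrp3. The folds are thus no limit across settings. G-Surgery was itself above background on 3 of 4 arrays for Csrp3, 2 for Tnni1 and Tnnc1, 1 for the brighter Atp2a2 probe and all 4 for Myoz2 and Tnnt1.

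The direction was lower in FLT-Surgery for all 10 genes under loess, with Cy5 alone, with the slide as a block and within each slide. The median was -4.05 on slide 1, with 2 FLT-Surgery and 3 G-Surgery arrays, and -4.49 on slide 2, which held 1 array of each group and gives no spread. With background correction by the normexp method and loess, the median shrank to -1.99. The differences were then -3.24 for Myl2, -0.82 for Myoz2 and -0.34 for Tnni1. The general muscle markers had lower means as well. All 9 were lower in FLT-Surgery, with a median of -2.04 and 0 past the cut-off, and the median of their summed Cy5 signal was 82600 in FLT-Surgery and 950000 in G-Surgery. Of other cell types, 6 of 7 neutrophil markers were lower with a median of -1.70, and 4 of 5 red cell markers with a median of -1.45, with 0 past the cut-off in both lists. The cartilage collagen Col2a1 was past it, at -2.46 to 1.76 in FLT-Surgery and 1.98 to 8.06 in G-Surgery. Fewer probes were above background on every FLT-Surgery array than on any G-Surgery array, as given above. The part of muscle content, other cells and the number of probes detected in the difference was not tested.

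On the ground, the operated and the intact femur overlapped in every member. The median of G-Surgery minus G-Sham over the members was -0.08, against 0.17 over all named genes tested, with 4 genes higher and 6 lower. The differences ran from -1.68 ± 1.73 for Atp2a2 to 1.12 ± 1.33 for Tnni1. None of the 10 genes was past the cut-off, where 2.59% of the 17675 probes tested were, and the groups overlapped for all 12 probes. The sign of the median moved with the slide, at 0.26 with the slide as a block, -0.61 within slide 1 with 7 genes lower and 1.82 within slide 2 with all 10 higher. Each of these within-slide values rests on a single array in 1 group, since slide 1 held 1 G-Sham array and slide 2 held 1 G-Surgery array (replicate 3). It also moved with single arrays, at 0.66 without G-Sham replicate 5, 0.53 without G-Surgery replicate 1 and 0.35 without G-Surgery replicate 5. This contrast and the next share arrays with the one on which the genes were chosen, so they too carry no test.

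In flight, the operated segments were lower than the intact ones. FLT-Surgery minus FLT-Sham had a median of -5.43, against -0.56 over all named genes tested, with -7.14 ± 1.33 for Myl2, -6.82 ± 1.37 for Myh7 and -6.42 ± 1.45 for Mb. The smaller differences were -3.71 ± 0.67 for Myl3, -3.42 ± 0.54 for Tnnt1 and -2.51 ± 1.22 for Tnni1. The difference of Myl3 moved to -2.30 with loess and -5.02 with normexp and loess. Of the 10, 9 were past the cut-off and Tnni1 was not, where 6.22% of the 19136 probes tested were past it as lower. Nothing is read from that count, since the genes were chosen for being low in FLT-Surgery, and 4 of the 9 (Csrp3, Myoz2, Atp2a2 and Tnnc1) entered the test through FLT-Sham alone. The groups did not overlap for those 9 genes, and nothing is read from this either, since the share of all probes is not given. The median was -6.02 within slide 1, with 1 FLT-Sham array, and -3.36 within slide 2, with 1 FLT-Surgery array, and all 10 genes were lower on both.

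For members above background on no FLT-Surgery array the fold is again a lower limit, in the loess and Aquantile processing only. There FLT-Sham was at least 17.7-fold higher for Csrp3, 16.8-fold for the brighter Atp2a2 probe, 6.65-fold for Myoz2 and 6.25-fold for Tnnc1. With normexp and loess the log2 differences were smaller than these folds, at -1.79 for Atp2a2, -1.62 for Myoz2 and -1.19 for Tnnc1. The log2 difference of Csrp3, -7.55 with the flagged spot, was -6.02 without it, -4.97 with Cy5 alone and -2.99 with normexp and loess. The probes of Atp2a2 did not behave alike. Its second probe gave -0.45 ± 0.89 with overlapping groups, was too dim to be tested and allows no bound, and the mean of both probes moved the difference of the gene from -5.67 to -3.06.

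Markers of other cells were past the cut-off as lower in FLT-Surgery too, where 6.22% of the 19136 probes tested were. They were 3 of the 4 red cell markers tested (Hba-a1, Alas2 and Slc4a1), 3 of the 7 neutrophil markers (Camp, Ngp and Mpo), 3 of the 4 fat cell markers (Adipoq, Cidec and Plin1), 1 of the 6 bone markers (Alpl, the tissue alkaline phosphatase) and 2 of the 9 general muscle markers (Ttn and Acta1). The 3 fat cell markers, Alpl and Slc4a1 were above background on no FLT-Surgery array. They entered the test through FLT-Sham alone, so that nothing is read from these counts. The neutrophil elastase gene Elane, singled out after its values were seen, went the other way, at 3.57 to 4.28 in FLT-Surgery and 2.63 to 3.96 in FLT-Sham, and no marker was past the cut-off as higher. The part of these cells in the difference was not tested.

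**Figure D3:**
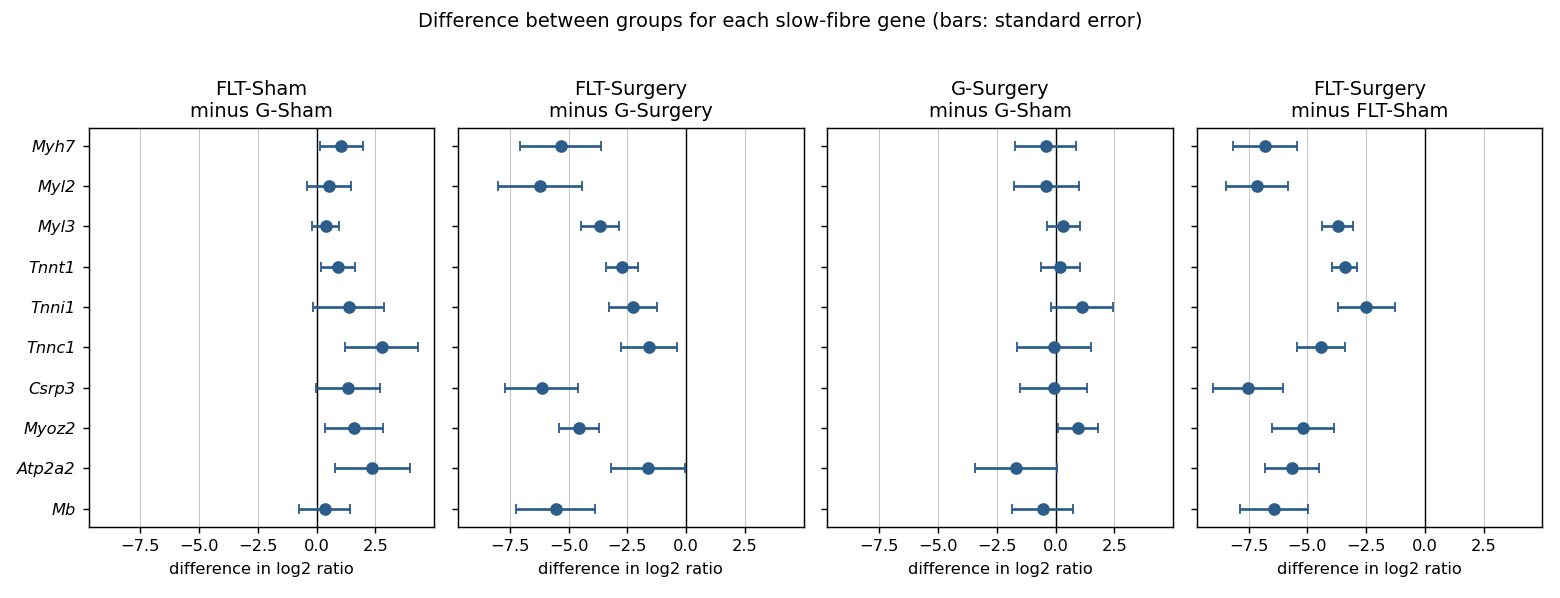
Difference in mean log2 ratio between 2 groups for the brightest probe of each slow-fibre gene, in the 4 comparisons, with the standard error as whiskers. All 10 genes lie above 0 for FLT-Sham minus G-Sham (0.34 to 2.77) and below 0 for FLT-Surgery minus G-Surgery (-6.23 to -1.59), while G-Surgery minus G-Sham straddles 0.

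Other genes of slow muscle, from a list of 19, were compared in the same way. In FLT-Surgery against G-Surgery, 6 of the 12 tested were past the cut-off as lower and none as higher, where 2.09% of all probes tested were past it as lower. Mybpc1 (-3.39), the slow myosin-binding protein C, and Fabp3 (-2.38), the fatty acid carrier of muscle, were above background on every FLT-Surgery array. The other 4 were above background on none and entered the test through G-Surgery alone, where they were high, so that nothing is read from the count. As lower limits in the loess and Aquantile processing only, G-Surgery was at least 16.3-fold higher for Myom3, a sarcomere M-band protein, and 6.0-fold for Smtnl1. The limit was 2.17-fold for Myh6, which is also a heart marker, and 2.05-fold for Smpx, a small muscle protein. For Fabp3, measured on all 15 arrays, the log2 ratio was 0.64 to 1.40 in FLT-Surgery and 2.24 to 4.64 in G-Surgery, without overlap. Without FLT-Surgery replicate 3, none of this list was past the cut-off. In FLT-Sham against G-Sham, 0 of the 15 tested were past it, against 2% of all probes tested.

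Among 17 genes that regulate the slow programme, 2 of the 10 tested were past the cut-off as lower in FLT-Surgery against G-Surgery, beside 2.09% of all probes tested. They were the TEAD cofactor Vgll2 (-4.80) and Ppp3r1 (-2.50), the regulatory subunit of calcineurin. Vgll2 was above background on 1 of 3 FLT-Surgery arrays and on all 12 others, and ranged from 0.00 to 4.57 in FLT-Surgery against 4.92 to 9.20 in G-Surgery. In the Sham comparison, 0 of the 13 tested were past it, beside the 2% of all probes. Sox6, Prox1 and Esrrg were above background on no array.

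Fast-fibre genes were set beside the slow ones. Over 14 fast genes the median of FLT-Surgery minus G-Surgery was -1.63, from -5.48 to 0.71, with 13 genes lower. Only Myh2, the heavy chain of the oxidative type IIa fibres, was past the cut-off of the 12 tested, where 2.09% of all probes were past it as lower. Myh2 was 4.57 to 8.77 in FLT-Surgery and 10.06 to 13.00 in G-Surgery. Without FLT-Surgery replicate 1, 8 of the fast genes were past the cut-off as lower, where 1843 of all 16110 probes tested were. Of 12 general sarcomere genes, Xirp2 alone was past it, and all 12 were lower, with a median of -2.15. Xirp2 was above background on no FLT-Surgery array, and G-Surgery was at least 1.99-fold higher in the loess and Aquantile processing.

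The mean of the slow genes minus the mean of the fast genes differed from array to array. The zero of this difference has no meaning across probes, and its change between arrays is given as a description. It was -5.18 to -4.79 in FLT-Surgery, -4.49 to -1.25 in G-Surgery, -4.88 to -1.89 in G-Sham and -3.17 to -1.84 in FLT-Sham. The FLT-Surgery arrays thus lay below all G-Surgery and FLT-Sham arrays, and G-Sham replicate 4 lay among them. In FLT-Sham minus G-Sham the fast genes had a median of 0.57, with 9 of 14 higher, and 0 past the cut-off.

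**Figure D4:**
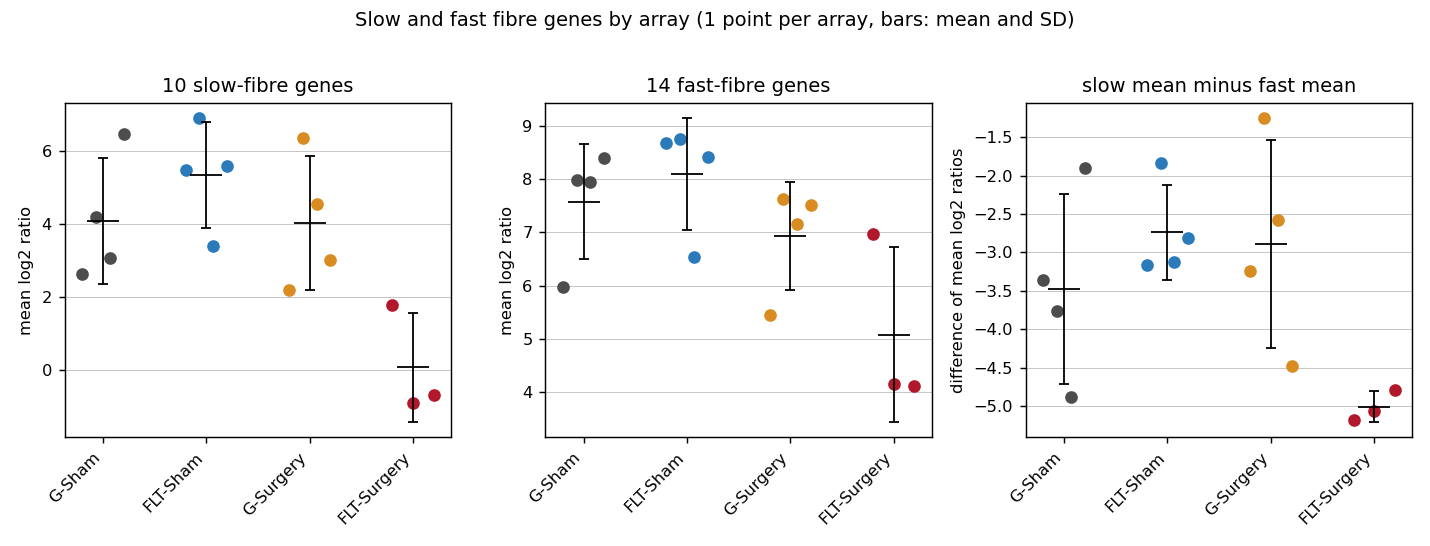
Mean log2 ratio of the 10 slow-fibre genes, mean log2 ratio of the 14 fast-fibre genes, and the slow mean minus the fast mean, 1 point per array in the 4 groups, with group mean and SD. The slow mean of FLT-Surgery runs from -0.90 to 1.80, and the difference from -5.18 to -4.79.

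Of genes outside the muscle lists, the 5 whose log2 ratio was most like the members' mean over the 15 arrays were Dnaja4 (Pearson r 0.96), a heat shock co-chaperone, Decr1 (0.96), an enzyme of mitochondrial fatty acid oxidation, Pcnt (0.96), a centrosome protein, Hspb2 (0.96), a small heat shock protein of muscle, and Pla2g12a (0.95), a phospholipase. They were the highest of 9263 probes above background on at least 8 arrays. The arrays share the reference channel, and no test was made.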

How the data were processed

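Femur segments of 15 mice in 4 groups were measured on Agilent 2-colour arrays. Per the labels and file headers, the authors scanned the arrays and extracted features with Agilent Feature Extraction (12.0 in the submitters' processing notes), which gave background-corrected, dye-normalised intensity values of both channels and a log10 ratio of Cy5 to Cy3 per spot. The deposited series table holds the same log10 ratio rounded. A deposited log10 ratio of exactly 0 is a placeholder at 15.9% to 32.3% of the spots of an array.

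Here the deposited log10 ratio was turned into a log2 ratio, spots flagged as outliers were left out and spots of a probe averaged. No loess was added, although the methods name it, because the processed intensity already holds a dye normalisation. A probe entered the test if its Cy5 spot passed the background call on 3 or more arrays of the pair of groups. The moderated test came from limma 3.58.1 (R 4.3.3), fitted to that pair only, and p-values were adjusted by the Benjamini-Hochberg method over all probes. Called means a fold of at least 2 and p up to 0.01. The fit was tested on simulated data. Accessions named 28026 probes. The members and gene lists were chosen with earlier results of these data known, so the Surgery contrast and those sharing its arrays carry no p-value. The named genes are the 10 members, genes of the other lists past the cut-off (at most 6 a list, by size) and the 5 genes most like the members' mean. Samples are separate animals per the study's methods, and the few arrays limit the precision. Alternatives changed normalisation, channel, background correction, filter, arrays, slide block and probe. No figure for RNA integrity was used here.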

Additional observations from a re-analysis of the deposited data

Results flagged for a closer look

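Among the 30 sets of 4 arrays formed by the 10 genes in the 3 groups of that size, 1 held an array far from the rest. Tnnt1 in G-Sham replicate 5 had a log2 ratio of 5.73, against 2.87 to 3.13 on the other 3 arrays, a gap of 0.91 of the whole range. Chance sets apart about 1 in 20 such sets, or 1.5 of 30. The same array had the highest log2 ratio of the 15 for 3 of the 10 genes.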

How the results depend on the processing

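In FLT-Sham against G-Sham, the median over members stayed above 0 under every alternative, at 0.51 to 1.78 with an array left out, and 0 members were past the cut-off except 1 (Tnnc1, 4.30) without G-Sham replicate 5. Single genes turned negative for Myl2 (-0.40) and Mb (-0.76) without G-Sham replicate 1, for Mb (-0.0246) without FLT-Sham replicate 9 and, with loess, for Myl3 (-0.0342) and Mb (-0.29). The highest values with an array left out were 1.21 for Myl2 and 0.92 for Mb. Without FLT-Sham replicate 8, 2 other slow genes and 2 fast genes were past it as higher, beside 1772 of all 19415 probes tested. Over all arrays left out, these counts were 0 to 2 and 0 to 2. In FLT-Surgery against G-Surgery, the median was -4.61 to -3.33 with an array left out and -1.99 with normexp and loess. In FLT-Surgery against FLT-Sham it was -6.55 to -4.61, -3.14 with normexp and loess and -3.56 with both channels above background on every array, which left 2 members. In G-Surgery against G-Sham it was -0.83 to 0.66.

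The count of members lower and past the cut-off in FLT-Surgery against G-Surgery was 5, and was 3 with loess, 2 with normexp and loess, 2 with no filter on dim probes, 2 with both channels above background, and 2 to 7 with an array left out. For the other slow genes it was 6, and was 3 with loess, 2 with normexp and loess, 3 with no filter, 3 with both channels above background and 0 to 7 with an array left out. For the fast genes it was 1, and was 0 with both channels above background, 2 with all 15 arrays in the fit and 1 to 8 with an array left out. Of all 16548 probes tested, 346 were past it as lower, 62 with loess, 36 with normexp and loess and 412 with all 15 arrays. With no filter it was 456 of 55681, with both channels above background 179 of 9069, and with an array left out 119 to 1843 probes. Nothing is read from the list counts, since the lists were chosen with results of these data known. With the replicate block the counts of the 3 lists were 0, 1 and 0, beside 106 of all probes. The medians were then -3.98 for FLT-Surgery against G-Surgery and -0.08 for G-Surgery against G-Sham. The numbers only name the animals: same-numbered deviations correlated from -0.38 to 0.23 in the first comparison and from -0.16 to 0.38 in the second. For the remaining 2 comparisons no paired analysis was possible because FLT-Sham and G-Sham share 1 number and FLT-Surgery and FLT-Sham share none. The cause of these shifts was not tested.

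Over all probes, loess turned the split of calls in FLT-Surgery against G-Surgery from 173 higher and 346 lower to 1128 higher and 62 lower, and the median from -0.20 to 0.29. Calls there numbered 209 higher and 1843 lower without FLT-Surgery replicate 1, and in the Sham comparison 1772 higher and 299 lower without FLT-Sham replicate 8. Replacing placeholder zeros and leaving out spots with a flagged background were chosen after seeing the data, and gave medians of -4.07 and -4.10 in FLT-Surgery against G-Surgery. The background correction used median signals, since mean signals were not used here.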
